A study of Mus musculus with 43 samples.

Results

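The control ovary was followed from embryonic day 13 (E13) to embryonic day 16 (E16), the interval in which the female germ cells of the mouse enter meiosis and pass through most of its first prophase. The 3 arrays titled as ovaries of E13 and the 3 titled as ovaries of E16 were compared, 6 of the 43 arrays of the series, and every probe set entered the test. The series profiled whole mouse gonads, freed of the adjoining tissue, to compare gonads with altered Foxl2, Wnt4 or Kit with controls, and each array carried the RNA of a single mouse. The E13 ovaries are labelled Foxl2+/-, that is with 1 intact copy of the gene for a transcription factor of the somatic cells of the ovary, whereas the study's methods name wild-type littermates as controls. The E16 ovaries carry no genotype label and are wild type by the methods. Both stages came from one mixture of strains (C57BL/6J, NIH-Swiss/BC and CD1). Stage and the labelled Foxl2 allele therefore differed together and cannot be told apart within these 6 arrays. A further group of 3 E16 ovaries, labelled Foxl2+/-, was used in place of the E16 control ovaries as an alternative that matches the E13 label. Control ovaries of E15 (2 arrays, labelled Wnt4+/- and from another mixture of strains that also held C57BL/6J), wild-type ovaries of the day of birth (P0, 3 arrays) and E13 testes were read for levels. Foxl2-null ovaries (labelled Foxl2-/-, 3 arrays at E13 and 3 at E16) served for a test of the difference between null and control change, and Kit Wv/Wv ovaries of P0, which carry Foxl2+/- as well, for a description against the wild-type P0 ovaries.

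In the fetal ovary, primordial germ cells first divide under a program that shares its transcription factors with pluripotent stem cells. Retinoic acid and BMP signals then induce Stra8 and Meiosin, whose products switch on the genes of meiotic prophase: the chromosome axis forms, double-strand breaks are made, homologous chromosomes pair along the synaptonemal complex, and the breaks are repaired as crossovers. Germ cells that pass this phase arrest as oocytes and take up the program of follicle formation, which is led by Figla, Nobox, Lhx8 and Sohlh1. The somatic cells around them, the pregranulosa cells, express Foxl2, Wnt4 and Rspo1 and stop dividing early, while the stroma, surface epithelium and vessels continue to grow.

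Signals are given as multiples of the common mean intensity of an array, in the order of ovaries 1, 2 and 3 of a stage, and are compared only between arrays for the same probe set. The median signal was 0.247, 0.245 and 0.198 in the E13 ovaries and 0.266, 0.283 and 0.292 in the E16 ovaries. Over all probe sets the correlation of log2 values was 0.9567 to 0.9681 within E13, 0.9677 to 0.9768 within E16 and 0.9297 to 0.9672 between the stages. Some ovaries stood apart from others of their stage in the genes described here. E13 ovary 1 had the lowest signal of its stage for 38 of 46 meiotic genes measured and for all 10 general germ cell genes, against 34.1% of all genes. E13 ovary 2 had the highest signal of its stage for 39 of the 46 meiotic genes, and E13 ovary 3 for 20 of 22 early germ cell genes. E16 ovary 1 lay near the E15 arrays for some genes but not for others. For instance, Stra8 read 3.19 in it against 0.115 and 0.202 in the other E16 ovaries and 2.91 and 4.89 at E15. For lists of more than 1 call, the counts without an ovary are given where its omission moved them by over 1.5 times, and single calls with the number of 14 alternatives that lost them.

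A gene was called, and is said to have risen or fallen, where limma's moderated test gave a Benjamini-Hochberg adjusted p under 0.05 over all 45007 probe sets. Each gene was read from the probe set with its highest mean. Every ± beside a log2 change is a standard error, with n = 3 ovaries at each stage. Of 18184 genes, 919 rose (5.05%) and 712 fell (3.92%), which together made 8.97% of all genes. The 3 ovaries of one stage did not overlap with those of the other for 31.9% of all genes and for 1561 of the 1631 called genes. Of all genes, 21% were higher and 10.9% lower at E16 without overlap. Among the called genes 472 rose and 248 fell by at least 2-fold (3.96% of all genes), and 105 rose and 68 fell by at least 4-fold. The median log2 change of all genes was 0.159, so a change near this value is that of the typical gene. Quantile normalization moved this median to -0.0232 and the share of rises among called genes from 56.3% to 45%, with 764 rises and 933 falls. With the Foxl2+/- ovaries of E16 in place of the controls, 1141 genes rose and 645 fell (63.9% rises). There 1114 of the 1631 calls were made again, and 2 of the 1631 genes had a change of the opposite sign. Without E13 ovary 3 the calls numbered 541, of which 303 rose and 238 fell.

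**Figure D1:**
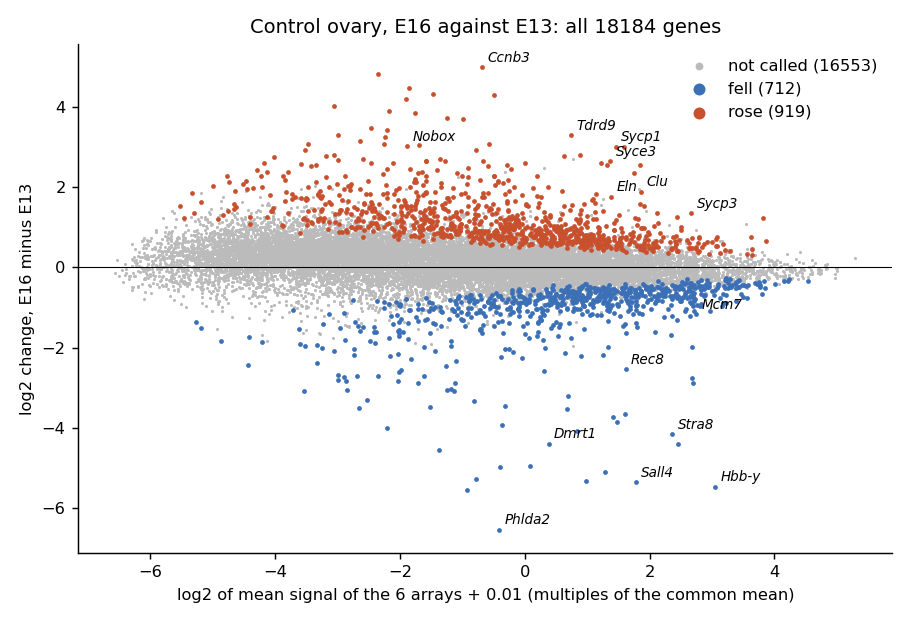
Log2 change from E13 to E16 (vertical axis) of all 18184 genes against the log2 of their mean signal over the 6 ovaries plus 0.01 of the common mean (horizontal axis). The 919 genes that rose and the 712 that fell are coloured; falls reach further from 0 than rises at high signal, with Phlda2, Hbb-y and Sall4 at the lower edge and Ccnb3 at the upper.

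**Figure D2:**
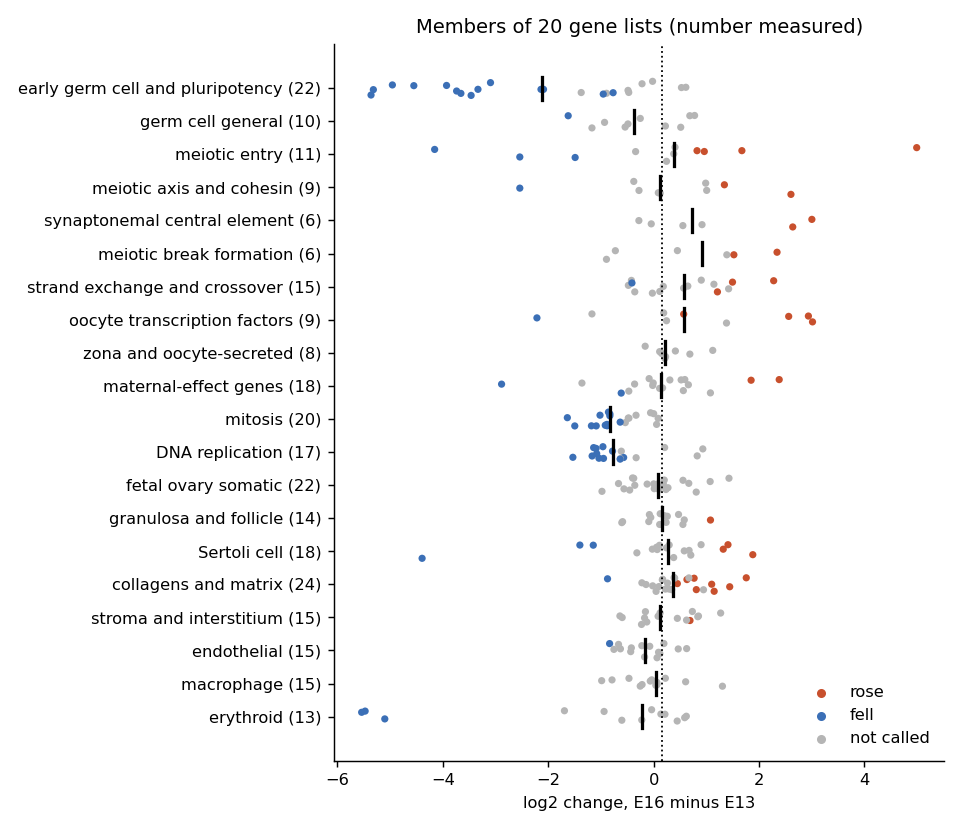
Log2 change from E13 to E16 of each measured member of 20 gene lists, with the number measured in parentheses. Bars mark the list's median and the dotted line the median of all genes, 0.159; early germ cell, mitosis and DNA replication genes lie mostly to the left of it, and 8 of 24 collagen and matrix genes are marked as risen.

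Most genes of the early germ cell and its pluripotency program fell between E13 and E16. Of 22 measured, 14 fell and 0 rose, with a median log2 change of -2.11 against 0.159 for all genes. Without overlap between the stages were 16 of the 22, against 31.9% of all genes. Sall4, a zinc finger factor of primordial germ cells and stem cells, read 4.64, 5.4 and 10 at E13 and 0.221, 0.227 and 0.0564 at E16. Each E13 ovary was far above each E16 ovary (log2 change -5.36 ± 0.60, adjusted p = 3.5e-07). Lin28a, which binds RNA and holds back let-7 microRNAs, read 2.57, 3.3 and 5.48 at E13 and 0.309, 0.0309 and 0.0465 at E16 (log2 change -5.32 ± 0.71, adjusted p = 5.6e-06). The transcription factor Sox2 read 0.504, 0.645 and 1.04 at E13 and 0.0197, 0.0145 and 0.028 at E16, again without overlap (log2 change -4.55 ± 0.48, adjusted p = 1.8e-07). Pou5f1, which encodes OCT4, read 0.82, 1.1 and 2.44 at E13 and 0.0644, 0.0606 and 0.111 at E16 (log2 change -3.93 ± 0.48, adjusted p = 1.5e-06). E13 ovary 3 was the highest for all of these genes, and the E16 ovaries lay close to the low end of the signals. With the Foxl2+/- ovaries of E16 the same list counted 14 falls and 0 rises, and without E13 ovary 3 it counted 11 falls. In a whole gonad, fewer cells of a type and less RNA per cell cannot be told apart.

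Other members of that program fell as well. Nanog read 0.808, 0.459 and 1.85 at E13 and 0.078, 0.0766 and 0.0816 at E16 (log2 change -3.33 ± 0.51, adjusted p = 4.0e-05). Dppa2, an early embryonic chromatin protein, changed by -4.96 ± 0.69 (adjusted p = 1.1e-05), its relative Dppa4 by -3.46 ± 0.58 (adjusted p = 1.6e-04) and Dppa5a by -3.74 ± 0.63 (adjusted p = 1.5e-04). Among the factors that specify primordial germ cells, Tfap2c changed by -3.66 ± 0.76 (adjusted p = 0.00189) and Prdm14 by -3.1 ± 0.51 (adjusted p = 1.2e-04), both without overlap, whereas Prdm1, which acts with them, changed by -0.47 ± 0.32 and was not called (adjusted p = 0.395). Alpl, the alkaline phosphatase long used to stain these cells, fell by 2.14 on the log2 scale (adjusted p = 4.2e-06). The stem cell genes Zfp42, Utf1 and Esrrb were not called, with log2 changes of -0.02, -0.22 and -0.89. Kit, the receptor that germ cells need for survival, changed by -0.49 ± 0.42 (adjusted p = 0.511).

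General germ cell genes were mostly not called. Of 10 measured, 1 fell and 0 rose, with a median log2 change of -0.37 and a summed signal of 11.7 to 25.9 at E13 and 16.5 to 20.5 at E16. The part of germ cell number in the results on germ cell genes was not tested. The fall was that of Dnd1, an RNA-binding protein of the early germ line (log2 change -1.62 ± 0.48, adjusted p = 0.0305), a call lost in 5 of 14 alternatives. Ddx4, the germ cell RNA helicase, read 1.02, 2.63 and 2.21 at E13 and 1.42, 1.65 and 1.5 at E16. The stages overlapped (log2 change -0.25 ± 0.59, adjusted p = 0.825). Dazl, an RNA-binding protein of germ cells of both sexes, read 3.79, 8.83 and 7.45 at E13 and 4.77, 5.49 and 3.45 at E16 (log2 change -0.49 ± 0.39, adjusted p = 0.471), also with overlap. E13 ovary 1 was the lowest for both genes. Members of the list lay on both sides of 0. Mael, Tex101, Rbm46 and Tdrd1 changed by 0.78, 0.69, 0.51 and 0.22 on the log2 scale. Sohlh2, Tex14 and Tex13b changed by -1.17, -0.93 and -0.54, and none of these was called. In the E13 testis, where germ cells do not enter meiosis at this stage, the early genes were expressed too, with mean signals of 7.64 for Sall4 and 2.62 for Nanog.

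**Figure D3:**
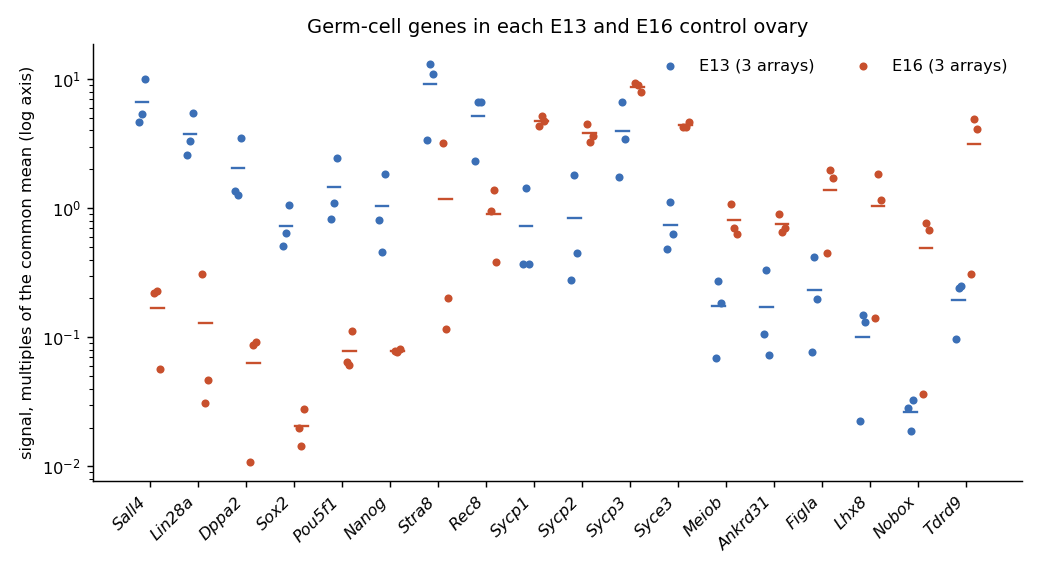
Signal of 18 germ cell genes in each of the 3 E13 and 3 E16 ovaries (log axis, multiples of the common mean); horizontal bars are group means. From Sall4 to Nanog the E13 points lie above all E16 points, for Sycp1 to Ankrd31 below them, and Lhx8 overlaps.

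Genes of meiotic entry moved both ways. Of 11 measured, 4 rose and 3 fell. Stra8, the retinoic acid target that starts the meiotic program, read 3.35, 13.1 and 10.9 at E13 and 3.19, 0.115 and 0.202 at E16. E16 ovary 1 was just under the lowest E13 ovary, while the other E16 ovaries were far below (log2 change -4.16 ± 0.91, adjusted p = 0.00296). This call was lost where E16 ovary 2 was left out and where only the 6 arrays were fitted, and the adjusted p reached 0.054 over the alternatives. Rec8, a cohesin subunit of meiosis, read 2.33, 6.64 and 6.64 at E13 and 0.958, 1.38 and 0.382 at E16 and fell without overlap (log2 change -2.54 ± 0.69, adjusted p = 0.018). Zglp1, a zinc finger factor that acts downstream of BMP in oogenic fate, fell by 1.49 on the log2 scale (adjusted p = 0.0122). The mean signal in the E13 testis was 0.142 for Stra8 and 0.185 for Rec8. Ccnb3, a cyclin expressed in meiotic cells, read 0.0244, 0.125 and 2.6e-06 at E13 and 0.77, 1.55 and 1.22 at E16 and rose (log2 change 4.99 ± 0.58, adjusted p = 5.7e-07). In E13 ovary 3 it was far below the pseudocount of 0.01, and its log2 change was 3.77 to 6.26 over the alternatives. Tex15, needed for meiotic recombination in the testis, rose by 1.68 ± 0.45 (adjusted p = 0.0176), the transcription factor Mybl1 by 0.96 ± 0.28 (adjusted p = 0.028) and Ythdc2, an RNA helicase that drives the exit from the mitotic program, by 0.82 ± 0.26 (adjusted p = 0.0402). Its partner Meioc was not called (log2 change 0.38 ± 0.54, adjusted p = 0.698), nor were Taf4b, Setdb2 and Ugt8a, with log2 changes of 0.24, -0.34 and 0.41. Without E13 ovary 3 this list counted 1 rise and 1 fall, without E13 ovary 1 it counted 1 rise and 3 falls, without E16 ovary 2 it counted 1 rise and 2 falls, and without E16 ovary 1 it counted 2 of each.

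The chromosome axis is built of cohesin and of filament proteins. Of 9 axis and cohesin genes 2 rose and 1 fell, the fall being that of Rec8. Sycp2, a core of the axis, read 0.277, 1.81 and 0.447 at E13 and 4.5, 3.27 and 3.63 at E16. All E16 ovaries were above all E13 ovaries (log2 change 2.61 ± 0.50, adjusted p = 8.7e-04). Its partner Sycp3 read 1.75, 6.64 and 3.46 at E13 and 9.33, 8.95 and 7.89 at E16, likewise without overlap (log2 change 1.34 ± 0.39, adjusted p = 0.0271). E13 ovary 2 was by far the highest of its stage for both. Hormad1, which marks axes not yet synapsed, changed by 0.99 ± 0.46 (adjusted p = 0.19) and the meiotic cohesin subunit Smc1b by 1.01 ± 0.64 (adjusted p = 0.351), and neither was called. Stag3 changed by 0.09 ± 0.39 and Hormad2 by 0.13 ± 0.36, with the stages overlapping. The mean signal of Sycp3 in the E13 testis was 0.803. The list counted 1 rise and 0 falls without E13 ovary 3 or E16 ovary 3, 1 rise and 1 fall without E13 ovary 1 or E16 ovary 1 or 2, and 2 rises and 0 falls without E13 ovary 2.

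The synaptonemal complex joins the paired axes by transverse filaments and a central element. Of 6 genes measured, 2 rose and 0 fell, as also with the Foxl2+/- ovaries of E16, under quantile normalization and without E13 ovary 3. Sycp1, the transverse filament protein, read 0.37, 1.43 and 0.37 at E13 and 4.33, 5.19 and 4.75 at E16. The E16 ovaries lay close together and well above each E13 ovary (log2 change 3.0 ± 0.49, adjusted p = 1.1e-04). Syce3, which recruits the central element, read 0.481, 1.11 and 0.632 at E13 and 4.23, 4.28 and 4.68 at E16 (log2 change 2.64 ± 0.39, adjusted p = 2.9e-05). Other central element genes overlapped between the stages and were not called: Syce1 changed by -0.04 ± 0.52, Syce2 by -0.28 ± 0.21 and Tex12 by 0.56 ± 0.48. The gene listed as 4930447C04Rik, known also as Six6os1, changed by 0.92 ± 0.34 (adjusted p = 0.0967).

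The sequences around the starts of these genes show which letters the known regulators could meet there. Promoter windows of 250 bases before to 50 bases after the start were taken from RefSeq (build GRCm38.p6), which held a window for 14444 of the 18184 genes. STRA8 with MEIOSIN is known to bind CNCCTCAG, E2F factors TTCCCGC, factors of the bHLH-Zip class the E-box CACGTG, and FIGLA with its partner the wider E-box CANNTG, of which CACGTG is one form. Each was searched on both strands. Counts are of genes, and a gene with several windows counted where any of them held the motif. Sycp1 is shown as the gene of the synaptonemal complex that rose most, with the STRA8 motif in capitals (the match is on the opposite strand, so that the capitals read CTGAGGGG), at chr3:102936051-102936350 on the minus strand. The match begins at position 32 from the start.
Sycp1: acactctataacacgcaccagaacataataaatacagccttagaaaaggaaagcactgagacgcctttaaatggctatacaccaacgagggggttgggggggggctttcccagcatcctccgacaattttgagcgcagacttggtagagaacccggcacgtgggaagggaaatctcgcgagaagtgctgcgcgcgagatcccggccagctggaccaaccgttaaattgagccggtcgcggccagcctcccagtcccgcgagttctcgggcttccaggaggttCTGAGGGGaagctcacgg
Sycp3 is shown for its pair of CACGTG matches, in capitals, at chr10:88459337-88459636 on the plus strand. They begin at positions -64 and -43 from the start.
Sycp3: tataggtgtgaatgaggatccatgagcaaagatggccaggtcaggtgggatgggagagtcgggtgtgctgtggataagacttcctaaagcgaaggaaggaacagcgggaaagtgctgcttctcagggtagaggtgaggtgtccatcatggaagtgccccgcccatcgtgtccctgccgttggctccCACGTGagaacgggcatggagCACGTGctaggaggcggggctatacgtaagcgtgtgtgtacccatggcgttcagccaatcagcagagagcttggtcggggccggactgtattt
Of the 46 meiotic genes 38 had a window. CNCCTCAG was found in 8 of these 38 genes (21.1%), against 10.6% of all genes tested that had a window and 9.12% of all genes in the RefSeq table. It was found in 4 of 6 central element genes. CACGTG was found in 10 of the 38 (26.3%) against 10.2% of genes tested and 8.09% of all genes in the RefSeq table, and TTCCCGC in 13 (34.2%) against 7.95% and 5.29%. For TTCCCGC, 5 of 9 axis and cohesin genes held a match. The window of Stra8 itself held none of the 4 motifs. These matches are descriptions of sequence, and binding was not measured. Among all genes that rose and had a window, 9.74% held CNCCTCAG, near the share of all genes tested.

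Some genes that make and repair the double-strand breaks rose. Of 6 break genes 2 rose and 0 fell. Spo11, which cuts the DNA, rose by 1.52 ± 0.47 (adjusted p = 0.0374) and Ankrd31, a cofactor of the break machinery, by 2.34 ± 0.50 (adjusted p = 0.00234). Spo11 read 0.077, 0.183 and 0.19 at E13 and 0.413, 0.473 and 0.38 at E16. Prdm9, the methyltransferase that marks hotspots, read 0.345, 1.4 and 0.337 at E13 and 3.55, 0.87 and 0.983 at E16, with E16 ovary 1 apart from the others, and was not called (log2 change 1.39 ± 0.49, adjusted p = 0.0766). Mei4 and Rec114, partners of Spo11, changed by -0.89 ± 0.45 and -0.73 ± 0.33 and were not called. Without E13 ovary 3, 0 of the 6 genes were called. Without E13 ovary 1 the list counted 1 rise and 2 falls, and without any 1 of the E16 ovaries 1 rise. Of 15 genes of strand exchange and crossover 3 rose and 1 fell.

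Meiob, a single-strand binding protein of meiosis, read 0.0694, 0.272 and 0.184 at E13 and 1.08, 0.707 and 0.626 at E16 (log2 change 2.28 ± 0.55, adjusted p = 0.00689). Msh4, which stabilises the intermediates of crossover, rose by 1.5 ± 0.45 (adjusted p = 0.0325), and Mlh3, a nuclease of crossover resolution, by 1.21 ± 0.35 (adjusted p = 0.0255), the latter with overlapping stages. Trip13, an ATPase that strips HORMA proteins from synapsed axes, fell by 0.41 on the log2 scale (adjusted p = 0.0201). Dmc1, the meiotic recombinase, was not called (log2 change 0.90 ± 0.37, adjusted p = 0.128). With the Foxl2+/- ovaries of E16 the list counted 6 rises and 0 falls, whereas without E13 ovary 3, E16 ovary 2 or E16 ovary 3 it counted 1 rise, without E13 ovary 1 it counted 0 rises and without E13 ovary 2 it counted 7. Over all 46 meiotic genes 13 rose, 4 fell and 29 were not called, with a median log2 change of 0.503. Of all genes 5.05% rose and 3.92% fell. Without overlap were 20 of the 46, against 31.9% of all genes.

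E16 ovary 1 was set beside the ovaries of E15. In Prdm9 it read 3.55 against 0.87 and 0.983, with 4.03 and 5.83 at E15. In Tdrd9, a helicase of the piRNA pathway, it read 0.31 against 4.91 and 4.13, with 0.207 and 0.212 at E15. In both it was therefore on the side of the E15 ovaries. Smc1b gave 6.76 against 3.22 and 2.9 (7.64 and 10 at E15). Other genes were not near E15 in this ovary. Nobox gave 0.0367 against 0.77 and 0.676 and lay below both E15 ovaries (0.153 and 0.10). Figla was below its E15 mean of 1.05 and Hbb-y far below its E15 mean of 44.8. Sycp1 was alike in the 3 E16 ovaries. The E15 ovaries are of another strain mixture and genotype, so stage and strain cannot be told apart there. Without E16 ovary 1 the control comparison called 1347 genes, 1215 of them among the 1631.

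**Figure D4:**
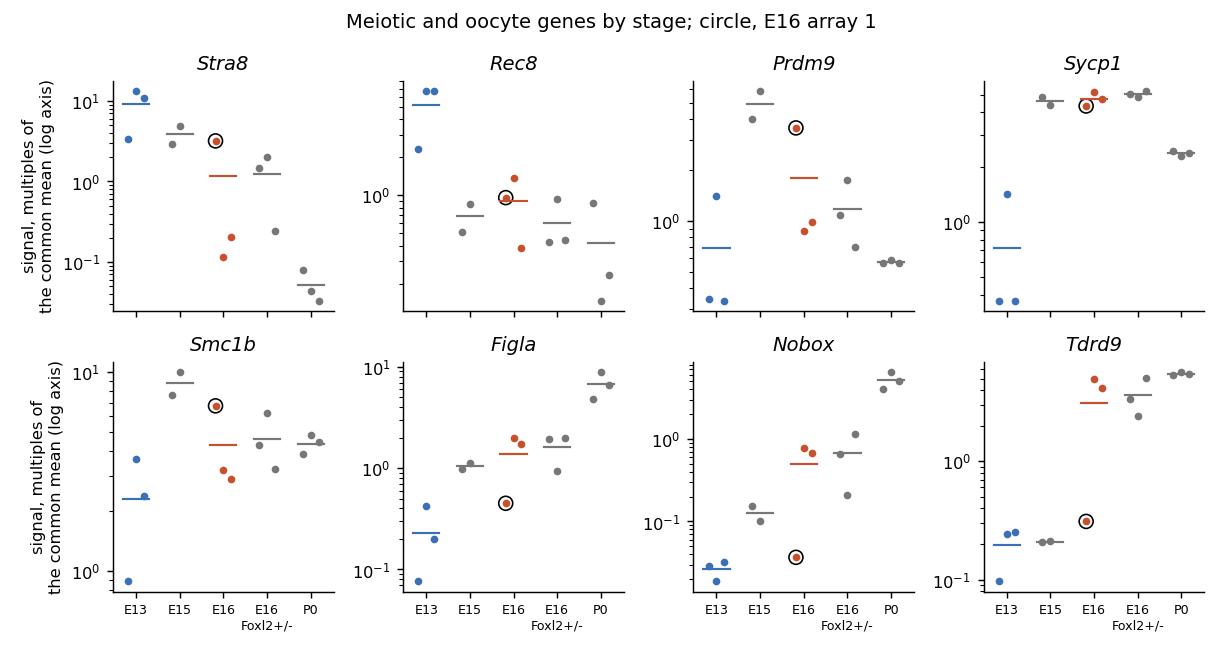
Signal of 8 meiotic and oocyte genes (log axes, multiples of the common mean) in control ovaries of E13, E15, E16 and P0 and in E16 Foxl2+/- ovaries; points are arrays and bars group means. The circle marks E16 ovary 1, which lies with E15 for Stra8, Prdm9, Smc1b and Tdrd9 and with the other E16 ovaries for Sycp1.

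Some of the transcription factors of the oocyte rose. Of 9 measured, 4 rose and 1 fell. The rises numbered 2 without E13 ovary 1 or 3 and 1 without E16 ovary 2 or 3, where the calls of Figla and Lhx8 were lost. Nobox, which directs oocyte gene expression in the primordial follicle, read 0.0285, 0.0188 and 0.0325 at E13 and 0.0367, 0.77 and 0.676 at E16. All E16 values were above all E13 values, though E16 ovary 1 only just (log2 change 3.02 ± 0.66, adjusted p = 0.00305). Figla, which activates the zona pellucida genes, read 0.0765, 0.419 and 0.198 at E13 and 0.45, 1.99 and 1.72 at E16 (log2 change 2.56 ± 0.72, adjusted p = 0.022). The LIM homeobox factor Lhx8 read 0.0225, 0.149 and 0.131 at E13 and 0.141, 1.83 and 1.16 at E16, where E16 ovary 1 lay among the E13 ovaries (log2 change 2.94 ± 0.85, adjusted p = 0.0284). Foxo3, which later holds the primordial follicle dormant, rose by 0.57 ± 0.11 (adjusted p = 8.1e-04). Sohlh1 read 0.272, 0.272 and 0.324 at E13 and 0.224, 1.61 and 1.23 at E16 and was not called (log2 change 1.38 ± 0.48, adjusted p = 0.0687). Gata2, expressed in germ cells around meiotic entry, read 2.25, 2.52 and 4.48 at E13 and 0.657, 0.626 and 0.596 at E16 and fell (log2 change -2.21 ± 0.39, adjusted p = 2.6e-04).
The promoter window of Nobox is shown as that of the factor in this list with the highest log2 rise, with both CANNTG matches in capitals, beginning at positions -137 and -50 from the start, at chr6:43309505-43309804 on the minus strand.
Nobox: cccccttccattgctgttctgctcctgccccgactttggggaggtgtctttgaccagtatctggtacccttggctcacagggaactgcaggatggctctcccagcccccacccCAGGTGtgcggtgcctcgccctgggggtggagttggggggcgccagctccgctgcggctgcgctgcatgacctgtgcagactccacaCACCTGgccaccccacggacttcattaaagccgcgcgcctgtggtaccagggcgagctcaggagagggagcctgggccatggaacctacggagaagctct
CANNTG stands in 70.9% of the genes tested that had a window, in 75% of all genes in the RefSeq table and in 5 of the 8 genes of this list with a window.

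The later genes of the oocyte were mostly not called. Of 8 zona pellucida and oocyte-secreted genes 0 rose and 0 fell, with a median log2 change of 0.22 that turned to -0.144 under quantile normalization, and their summed signal was 0.441 to 0.597 at E13 and 0.644 to 0.788 at E16. At P0 the mean signals were 4.12 for Zp2, 2.76 for Zp3 and 4.78 for Gdf9, and 5.21 for Nobox. Of 18 maternal-effect genes, whose products serve the early embryo, 2 rose and 2 fell, but without E13 ovary 3 it was 0 and 0, without E16 ovary 3 it was 0 rises and 2 falls, without E13 ovary 1 or 2 it was 1 rise and 2 falls, and without E16 ovary 1 or 2, or with the Foxl2+/- ovaries of E16, it was 1 of each. Nlrp5, part of the subcortical complex of the oocyte, read 0.104, 0.136 and 0.048 at E13 and 0.353, 0.638 and 0.573 at E16 (log2 change 2.38 ± 0.62, adjusted p = 0.013). Khdc1b rose by 1.85 ± 0.56 (adjusted p = 0.0363), a call lost in 8 of 13 alternatives. Dppa3, also a primordial germ cell gene, read 8.14, 10.3 and 15 at E13 and 0.474, 2.92 and 2.19 at E16 (log2 change -2.88 ± 0.69, adjusted p = 0.00675), and its mean at P0 was 39. Dnmt1, the maintenance DNA methyltransferase, fell by 0.61 on the log2 scale (adjusted p = 0.00622) as the 1 call among 8 DNA methylation enzymes, a call lost in 3 of 14 alternatives. Of 16 piRNA pathway genes, which silence transposons, 1 rose, Tdrd9 (log2 change 3.29 ± 0.69, adjusted p = 0.00205), a call lost in 1 of 14 alternatives.

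Most mitosis genes fell. Of 20 mitosis genes 12 fell and 0 rose, with a median log2 change of -0.83. Without overlap between the stages were 15 of the 20, against 31.9% of all genes. Ube2c, which serves the anaphase-promoting complex, read 4.34, 4.42 and 6.7 at E13 and 1.94, 1.8 and 1.63 at E16 (log2 change -1.5 ± 0.21, adjusted p = 1.3e-05). Plk1, a kinase of mitotic entry, read 0.883, 0.983 and 1.65 at E13 and 0.428, 0.515 and 0.202 at E16 (log2 change -1.64 ± 0.41, adjusted p = 0.0106). Cdc20 changed by -1.18 ± 0.22 (adjusted p = 6.7e-04), Ccnb2 by -1.09 ± 0.21 (adjusted p = 7.4e-04) and Aurkb by -1.02 ± 0.24 (adjusted p = 0.00506). Mki67, often used to count cycling cells, was not called and read 8.51, 7.76 and 6.32 at E13 and 8.64, 7.76 and 7.01 at E16 (log2 change 0.06 ± 0.18, adjusted p = 0.872). Cenpe and Cenpf, kinetochore proteins, changed by 0.00 and 0.09 and were not called either. With the Foxl2+/- ovaries of E16 the count was 10 falls with a median of -0.631, and it was 8 falls without E13 ovary 3 or E16 ovary 2 and 7 without E16 ovary 3.

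Of 17 DNA replication genes 11 fell and 0 rose, with a median of -0.78 and 14 without overlap, against 31.9% of all genes. Mcm2, a subunit of the replicative helicase, read 2.35, 2.61 and 3.66 at E13 and 1.14, 0.952 and 0.839 at E16 (log2 change -1.53 ± 0.26, adjusted p = 2.1e-04). Mcm7 read 9.7, 8.89 and 8.83 at E13 and 5.32, 4.48 and 2.81 at E16 (log2 change -1.17 ± 0.17, adjusted p = 2.6e-05). The measured Mcm subunits were all lower at E16, but not all were called: Mcm3 changed by -0.95 ± 0.24 (adjusted p = 0.0123), Mcm5 by -0.63 ± 0.29 (adjusted p = 0.179) and Mcm6 by -0.33 ± 0.17 (adjusted p = 0.238). Cdc6, which loads the helicase, changed by -1.08 ± 0.28 (adjusted p = 0.0117), and Rrm2, a subunit of ribonucleotide reductase, by -1.04 ± 0.23 (adjusted p = 0.00276). Orc1, Ccne2 and Cdc45 were on the other side of 0 and not called, with log2 changes of 0.93, 0.83 and 0.21. With the Foxl2+/- ovaries of E16 6 of these genes fell, with a median of -0.416, and without E13 ovary 3 the count was 7. Without E13 ovary 2, 2 genes rose beside 11 falls.
Mcm3 is shown as a helicase gene whose window holds the E2F motif, in capitals (read on the other strand as TTCCCGC), which begins at position 19 from the start, at chr1:20820263-20820562 on the minus strand.
Mcm3: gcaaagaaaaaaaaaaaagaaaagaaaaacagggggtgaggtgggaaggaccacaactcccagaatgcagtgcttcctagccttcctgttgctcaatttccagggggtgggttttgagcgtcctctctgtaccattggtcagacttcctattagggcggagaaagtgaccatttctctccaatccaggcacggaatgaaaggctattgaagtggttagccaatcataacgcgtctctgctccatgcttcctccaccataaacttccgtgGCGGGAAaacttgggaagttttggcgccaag
TTCCCGC was found in 5 of the 13 replication genes with a window (38.5%), in 0 of 17 mitosis genes with one, in 12.8% of the genes that fell and in 7.65% of those that rose.

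The somatic program of the fetal ovary gave 0 rises and 0 falls among 22 measured genes, with a median log2 change of 0.0913. Without overlap were 10 of the 22 genes, against 31.9% of all genes. When only the 6 arrays were fitted, 3 of these genes rose (Foxl2, Kitl and Lrrc4) and 1 fell (Msx1). Kitl was also called under quantile normalization. Foxl2 itself read 5.32, 7.51 and 10.1 at E13 and 16.5, 15.7 and 14.5 at E16. All E16 ovaries were above all E13 ovaries, but the change missed the threshold (log2 change 1.07 ± 0.51, adjusted p = 0.204) and passed it when only the 6 arrays were fitted (adjusted p = 0.02) or with a pseudocount of 0.05 of the common mean (adjusted p = 0.0363). The standard error of 0.51 was pooled over the groups of all 43 arrays. Among them the P0 testes read 0.214, 0.145 and 0.000528 for this probe set. A second probe set of Foxl2 gave much lower signals, 0.136 to 0.186 at E13 and 0.274 to 0.355 at E16, also without overlap. In the Foxl2+/- ovaries of E16 the first probe set read 13.1, 13 and 13.7, below each E16 control ovary and above each E13 ovary, with a log2 change from E13 of 0.84 ± 0.51 (adjusted p = 0.393). Wnt4, which opposes testis development, read 2.33, 1.37 and 1.48 at E13 and 1.55, 0.958 and 1.38 at E16 (log2 change -0.40 ± 0.28, adjusted p = 0.399). Rspo1, which raises the response to Wnt signals, read 4.92, 5.74 and 6.57 at E13 and 4.9, 6.03 and 4.86 at E16 (log2 change -0.12 ± 0.23, adjusted p = 0.777). Both overlapped between the stages. Gng13, the gene of this list with the highest change, changed by 1.43 ± 0.87 (adjusted p = 0.331), and Kitl, the ligand of the Kit receptor, by 0.67 ± 0.25 (adjusted p = 0.0967). Nr5a1, Msx1 and Lhx9 were lower without overlap but not called, with log2 changes of -0.67, -0.98 and -0.45. Wt1 and Gata4, factors of the early gonad, changed by 0.08 and 0.00.

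Of 11 Wnt pathway targets 1 fell and 0 rose: Lef1, itself an effector of the pathway, changed by -0.86 ± 0.28 (adjusted p = 0.0482), a call lost in 10 of 14 alternatives. Axin2, the usual readout of the pathway, changed by -0.29 ± 0.20 (adjusted p = 0.392). With the Foxl2+/- ovaries of E16, 3 of the 11 targets fell and 0 rose. These were Dkk1, Wif1 and Lef1, with log2 changes of -3.53, -1.36 and -0.96. Against the E16 control ovaries Dkk1 and Wif1 changed by -0.81 and -1.07 and were not called. Of 14 granulosa and follicle genes 1 rose, Gatm (log2 change 1.08 ± 0.33, adjusted p = 0.0405), a call lost in 8 of 14 alternatives. The list's median log2 change was 0.164, and -0.0191 under quantile normalization. Fshr and Esr2, receptors of the growing follicle, changed by 0.11 and 0.20. Of 9 steroidogenic genes 0 rose and 0 fell.

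Genes named for the Sertoli cell of the testis, many of which other gonadal cells express too, moved both ways, with 3 rises and 3 falls among 18. Dmrt1, which germ cells of both sexes and Sertoli cells express, read 1.42, 2.22 and 3.81 at E13 and 0.114, 0.142 and 0.0593 at E16 (log2 change -4.39 ± 0.49, adjusted p = 3.3e-07). The mean of Dmrt1 in the E13 testis was 3.21. Clu, a secreted chaperone, read 1.51, 1.75 and 1.38 at E13 and 6.38, 5.62 and 5.17 at E16 (log2 change 1.88 ± 0.26, adjusted p = 9.7e-06). Aard rose by 1.32 ± 0.22 (adjusted p = 1.8e-04) and Mro by 1.41 ± 0.30 (adjusted p = 0.00209), while Cldn11, a tight junction protein, and Sox8 fell by 1.4 and 1.15 on the log2 scale. Sox9, the switch gene of the testis, changed by -0.02 ± 0.36 (adjusted p = 0.975) and Dhh by 0.30 ± 0.36 (adjusted p = 0.655).

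**Figure D5:**
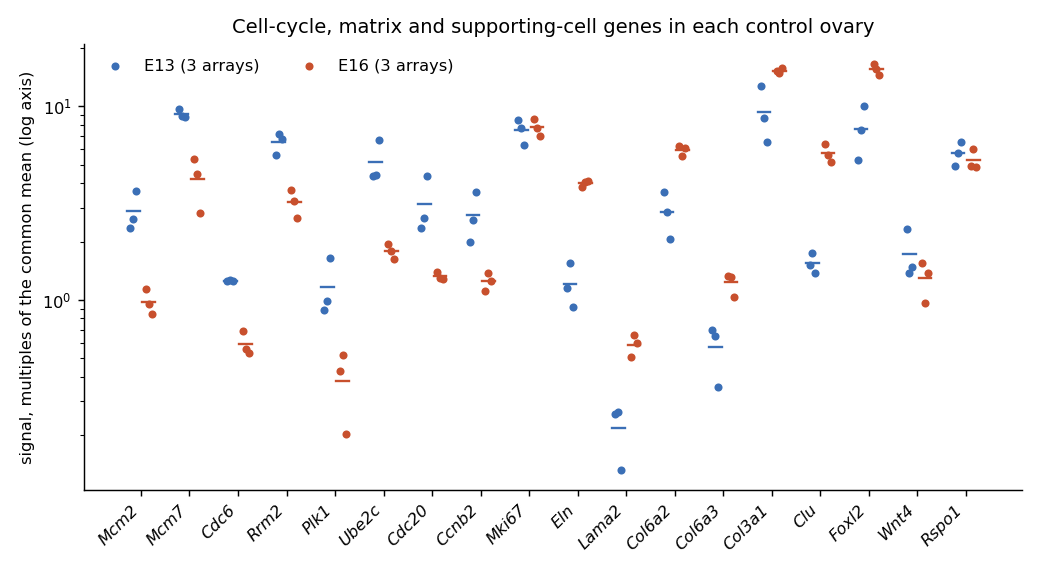
Signal of 18 cell cycle, matrix and supporting cell genes in each of the 3 E13 and 3 E16 ovaries (log axis, multiples of the common mean); horizontal bars are group means. Mcm2 to Ccnb2 are lower at E16 without overlap and Eln to Clu higher without overlap, while Mki67, Wnt4 and Rspo1 overlap.

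Among matrix genes rises outnumbered falls. Of 24 collagen and matrix genes 8 rose and 1 fell, with a median log2 change of 0.366. Eln, which encodes elastin, read 1.15, 1.55 and 0.92 at E13 and 3.84, 4.06 and 4.14 at E16. The E16 ovaries lay close together and well above E13 (log2 change 1.76 ± 0.20, adjusted p = 3.5e-07). The chains of collagen VI rose together: Col6a1 changed by 0.81 ± 0.19 (adjusted p = 0.0060), Col6a2 by 1.1 ± 0.21 (adjusted p = 9.5e-04) and Col6a3 by 1.15 ± 0.29 (adjusted p = 0.0109). Lama2, a laminin chain of muscle and stroma, read 0.257, 0.263 and 0.132 at E13 and 0.503, 0.657 and 0.599 at E16 (log2 change 1.44 ± 0.28, adjusted p = 9.0e-04). Col3a1 rose by 0.77 ± 0.17 (adjusted p = 0.00263). The basement membrane genes Col4a1, Lamc1 and Nid1 changed by -0.02, 0.10 and 0.26 and were not called, and Nid2 fell by 0.87 on the log2 scale (adjusted p = 3.1e-04). Without E13 ovary 3, 3 genes rose and 1 fell.

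Markers of other cells of the gonad were mostly not called. Among 15 stromal genes 1 rose, the transcription factor Maf (log2 change 0.69 ± 0.20, adjusted p = 0.0243), and among 10 smooth muscle genes 1 rose, Tagln (log2 change 1.12 ± 0.34, adjusted p = 0.0391). These calls were lost in 6 and 9 of 14 alternatives, and without E13 ovary 1, 5 stromal genes rose. Of 11 surface epithelium genes 0 were called, with a median of 0.686, and of 15 macrophage genes 0 were called, with a median of 0.0416 that turned to -0.238 under quantile normalization. Among 15 endothelial genes 1 fell, Pecam1 (log2 change -0.84 ± 0.25, adjusted p = 0.0324), a call lost in 5 of 14 alternatives, and quantile normalization gave 4 falls. Among markers of tissue that a dissection could carry over, the summed signal of 7 mesonephric duct and kidney genes was 1.28 to 2.4 at E13 and 0.879 to 1.38 at E16, with Wfdc2 falling by 2.88 and Calb1 rising by 0.96 on the log2 scale, calls lost in 2 and 8 of 14 alternatives. The 9 adrenal and neural genes summed to 0.862 to 1.25 and 0.846 to 1.31, with 0 called.

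The embryonic globin genes fell. Of 13 erythroid genes 3 fell and 0 rose, and their summed signal was 17.8 to 28.6 at E13 and 1.51 to 4.9 at E16. The falls were those of the embryonic globins of yolk sac red cells. Hbb-y read 15.9, 12.7 and 18.6 at E13 and 2.1, 0.0633 and 0.267 at E16 (log2 change -5.47 ± 0.68, adjusted p = 1.5e-06), and the mean of the E15 ovaries was 44.8. Hbb-bh1 changed by -5.54 ± 0.59 (adjusted p = 2.3e-07) and Hba-x by -5.1 ± 0.72 (adjusted p = 1.3e-05), each without overlap. The adult-type Hba-a1 changed by 0.59 ± 0.33 (adjusted p = 0.292), higher at E16 in each ovary but not called. The mean signal of Hba-a1 was 0.0659 at E13, 0.106 at E16 and 0.0307 at P0, below the median of 0.256 of all probe sets. So low a reading does not show whether adult-type globin changed. With the Foxl2+/- ovaries of E16 the median of the list was 1.29 in place of -0.225. The part of blood in the other results was not tested.

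In lists of general function most genes were not called. The share that fell was nevertheless above the 3.92% of all genes for glycolysis and ribosomal protein genes. Of 16 glycolysis genes 3 fell and 0 rose, with a median of -0.394: Ldhb changed by -0.44 ± 0.09 (adjusted p = 0.0012), Pkm by -0.64 ± 0.13 (adjusted p = 0.00156) and Pfkp by -0.97 ± 0.28 (adjusted p = 0.027). The call of Pfkp was lost in 6 of 14 alternatives, among them the Foxl2+/- ovaries of E16 (log2 change -0.25). The stages did not overlap for 12 of the 16, against 31.9% of all genes. Of 22 ribosomal protein genes 4 fell and 0 rose, with a median of -0.153, and 0 fell without E13 ovary 3 or without E16 ovary 2 and 2 fell without E13 ovary 1. Of 15 genes of retinoic acid metabolism and response 1 fell, Crabp2, which carries retinoic acid to the nucleus (log2 change -1.71 ± 0.34, adjusted p = 0.00122), a call lost in 0 of 14 alternatives. The enzyme that makes retinoic acid in the mesonephros, Aldh1a2, changed by -0.39 ± 0.21 (adjusted p = 0.281), and Cyp26b1, which degrades it, by 0.11 ± 0.35 (adjusted p = 0.874). Among 19 imprinted genes 1 rose, Igf2r (log2 change 0.42 ± 0.13, adjusted p = 0.042), a call lost in 7 of 14 alternatives, and 1 fell. The fall was that of Phlda2, a growth-limiting gene of the placenta, which read 1.01, 1.34 and 2.08 at E13 and 0.0257, 6.8e-06 and 9.1e-06 at E16 (log2 change -6.54 ± 0.61, adjusted p = 1.5e-08). In E16 ovaries 2 and 3 it was far below the pseudocount of 0.01, so the size of that fall depends on the pseudocount.

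The genes with the largest changes, chosen by the rule for named genes and so given as values, were of several kinds. Beside the genes above, the falls held the homeobox gene Rhox9, which read 5.77, 10.1 and 15.7 at E13 and 0.826, 0.339 and 0.322 at E16 (log2 change -4.4 ± 0.51, adjusted p = 4.7e-07), and the claudin gene Cldn6, which read 4.97, 2.52 and 2.6 at E13 and 0.217, 0.158 and 0.166 at E16 (log2 change -4.09 ± 0.73, adjusted p = 3.5e-04). Other members of the Rhox cluster on the X chromosome fell too, Rhox6 by 3.86 and Rhox5 by 2.75 on the log2 scale. Calcoco2 and Gstm3 fell by 5.28 and 4.99 and the long noncoding RNA Platr4, which stem cells express, changed by -4.01 ± 0.63 (adjusted p = 6.3e-05). The rises held Cps1, the first enzyme of the urea cycle, which read 0.00964, 0.0285 and 0.0079 at E13 and 0.173, 0.689 and 0.632 at E16 (log2 change 4.19 ± 0.84, adjusted p = 0.0013). Marco, a scavenger receptor known from macrophages, read 0.0233, 0.0355 and 0.0262 at E13 and 0.0855, 1.23 and 1.08 at E16, with E16 ovary 1 apart (log2 change 3.73 ± 0.72, adjusted p = 8.6e-04). Its mean at P0 was 1.63 in wild-type and 0.11 in Kit Wv/Wv ovaries, and 0 of the 15 macrophage genes were called. The cell type that expressed it here was not tested. Syt1, a calcium sensor of secretory vesicles, changed by 3.25 ± 0.56 (adjusted p = 2.4e-04). Myom3, Morn5, Dcaf8l and Gm364 changed by 4.83, 4.46, 4.33 and 4.3, and none of them read above 0.237 in an E13 ovary.

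The ovaries of Kit mutants at P0, labelled Kit Wv/Wv, share no array with this comparison, and the Wv mutation is known to deplete germ cells. Their difference from wild-type P0 ovaries is given as a description. Of all genes 6.86% were at least 2-fold lower in the mutants and 8.8% at least 2-fold higher. Of all 919 rises 10.9% were lower and 12.2% higher by that much, and of all 712 falls 16.4% were lower and 2.39% higher. Of the genes that rose at least 4-fold from E13 to E16, 44 of 105 (41.9%) were at least 2-fold lower in the mutants and 17 (16.2%) at least 2-fold higher. Of those that fell at least 4-fold, 31 of 68 (45.6%) were lower and 4 (5.88%) higher. Lower among meiotic genes were 6 of 6 break genes, 5 of 6 central element genes, 8 of 11 entry genes, 5 of 9 axis and cohesin genes and 8 of 15 strand exchange genes, and 6 of 9 oocyte transcription factors. In the wild-type P0 ovaries the mean signals of the break genes ranged from 0.0134 for Mei4 and 0.0437 for Spo11 to 1.42 for Rec114. Folds of signals near the pseudocount of 0.01 depend on it. Mitosis genes were at least 2-fold lower for 15 of 20, while DNA replication genes were for 1 of 17 and matrix genes for 0 of 24.

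The change from E13 to E16 was also measured in Foxl2-null ovaries, with 3 arrays at each stage, and the difference between the null and the control change was tested. It was called for 7 genes (0.0385%), 3 with a higher (0.0165%) and 4 with a lower change (0.022%) in the null ovaries, and 1698 genes (9.34%) had an unadjusted p under 0.05. Arrays of E13 control and E13 null ovaries with the same number deviated together, and with their number as a block 19 genes were called. Khdc1a, an oocyte gene of the maternal-effect list, read 4.7, 3.0 and 2.07 in the E13 null ovaries and 0.0722, 0.075 and 0.0727 in the E13 controls, with a mean of 4.65 in the E13 testis. Its change differed by -5.34 ± 0.49, adjusted p = 1.9e-08. Bmp8b, a BMP ligand of the germ line, differed by -3.31 ± 0.57, adjusted p = 0.0126. The meiotic and pluripotency genes described above were not among the 7 called, which does not show that their changes were alike. The median log2 change in the null ovaries was 1.62 for meiotic entry genes, 1.07 for axis and cohesin genes, 1.85 for central element genes, 1.84 for break genes and 0.45 for strand exchange genes. In the control ovaries these medians were 0.382, 0.125, 0.737, 0.92 and 0.569. For early germ cell genes the null median was -3.15 against -2.11, for general germ cell genes 0.391 against -0.37 and for oocyte transcription factors 1.16 against 0.571. The differences between these medians were not tested.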

How the data were processed

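Whole fetal gonads of single mice were measured on Affymetrix MOE430 v.2 arrays. RNA extraction used the MELT kit, linear amplification 1 round of Pico Ovation and biotin labelling FL-Ovation, as the labels state. The study used the program Focus, which was not run here. Each deposited value is an intensity, not log-transformed, which the authors summarised with the plier method and scaled to a global mean, 15970000 in each array. The labels also name GCOS 1.3, and a genome build is not given in the sources used here. The absolute scale is not stated, and amplification and scaling could change folds of low signals.

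Of 45071 probe sets, 64 controls were left out and 45007 tested. By the platform annotation 34927 had 1 gene symbol, 930 several and 9150 none; 34723 were named through RefSeq. Log2 values were taken after adding 0.01 of the common mean. All 43 arrays entered 1 limma fit (limma 3.58.1, R 4.3.3; group means, eBayes with trend, two-sided, 28 residual degrees of freedom, raised by moderation to a median of 36.84), with p-values adjusted by Benjamini-Hochberg across the whole table at 0.05, and the procedure was tested on simulated data. Each group had 3 arrays (E15 had 2), and that number limits the precision. p-values rest on the spread between mice within groups, pooled over all 43 arrays.

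The members, gene lists and tests were chosen with earlier results of these data known, so no list is independent evidence. Named genes are, among called genes without overlap and above the median signal, the top 15 in each direction by log2 change, every measured member of the meiotic, oocyte and fetal ovary somatic lists, up to 4 members of other lists by adjusted p, and 5 genes for the null comparison. Further list members, the Rhox genes, Gm16835, Aldh3a2 and the genes of the other observations were chosen after their values were seen. Promoter windows are RefSeq sequence (GRCm38.p6); list genes without a match on the array, such as Meiosin, were not analysed here. Same-numbered E13 control and E13 null arrays deviated together (r = 0.132, 0.135 and 0.158), so a block over their numbers was added after seeing the data. Alternatives changed the pseudocount, the normalization, the filter, the arrays fitted, the trend and the E16 group, or left out 1 array.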

Additional observations from a re-analysis of the deposited data

Results flagged for a closer look

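The change from E13 to E16 differed between Foxl2-null and control ovaries for 7 genes by limma's test of the difference itself, given here as the null minus the control log2 change with its standard error and n = 3 arrays in each of 4 groups. Khdc1a differed by -5.34 ± 0.49 (adjusted p = 1.9e-08), with E13 null signals above all others of the comparison. Bmp8b differed by -3.31 ± 0.57 (adjusted p = 0.0126), Elovl2, a fatty acid elongase, by -2.30 ± 0.41 (adjusted p = 0.0199) and the complement gene C8a by -4.00 ± 0.74 (adjusted p = 0.0248). The change was higher in the null ovaries for Wipf3, by 1.94 ± 0.31 (adjusted p = 0.00571), for Gm16835, by 2.28 ± 0.43 (adjusted p = 0.0323), and for Aldh3a2, a fatty aldehyde dehydrogenase, by 1.34 ± 0.26 (adjusted p = 0.0436). Over the alternatives the call was lost in 5 of 20 for Bmp8b (adjusted p up to 0.43), 6 of 20 for Elovl2 (up to 0.271), 7 of 19 for C8a (up to 0.486), 2 of 20 for Wipf3 (up to 0.158) and 0 of 20 for Khdc1a. The cause of these differences was not tested.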

How the results depend on the processing

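The count of 1631 called genes stayed within 1.5 times under the other pseudocounts (1506 and 1793), quantile normalization (1697), a filter on dim probe sets (1759), no trend (1357) and the E16 Foxl2+/- ovaries (1786), and 1320 of the calls were made again after quantile normalization. Fitting only the 6 arrays gave 834 calls, 448 rises and 386 falls. Leaving out 1 array gave 541 to 1701 calls, 303 to 1013 rises and 238 to 731 falls; the count moved by over 1.5 times without E13 ovary 3 (541), E16 ovary 2 (795) or E16 ovary 3 (845). Of the named genes' log2 changes under the alternatives, 218 lost the call, 53 gained one and 2728 kept their side of the threshold; no called gene changed sign, and 39 values of genes not called did. Among the calls lost were those of Sycp3 (6 of 14 alternatives), Spo11 (7), Msh4 (8), Lhx8 (6), Figla (5), Nobox (3), Rec8 (3) and Stra8 (2). Lost too were those of Ythdc2 (7 of 14), Mybl1 (6), Trip13 (6), Pfkp (6) and Mlh3 (5). Of 363 list medians 35 changed sign, in 17 lists, among them those of erythroid genes with E16 Foxl2+/- ovaries (1.29), of adrenal and neural genes with the filter (-0.333), and, under quantile normalization, of granulosa (-0.0191), macrophage (-0.238), maternal-effect (-0.177) and zona genes (-0.144). The causes were not tested.

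Replicate numbers did not pair E13 with E16 ovaries (r = 0.016, 0.034 and -0.0297), and the replicate block gave 1632 calls, 946 rises and 686 falls. For the Foxl2-null difference (7 genes), the replicate block gave 14, the block over the E13 genotypes 19, a pseudocount of 0.05 of the common mean 11, quantile normalization 24 and only the arrays compared 3. Leaving out 1 array gave 1 to 284 genes, 284 without E13 null ovary 3, 15, 11, 12 and 2 without E13 control ovaries 3 and 2 and E16 control ovaries 1 and 3, 4 and 14 without E13 null ovaries 1 and 2, and 2 and 1 without E16 null ovaries 1 and 3. Low signals, near 0.01 of the common mean, have folds that depend on the pseudocount.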

Other observations

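Further genes, chosen after their values were seen, changed between the stages. Cpa3, a protease of mast cells, read 2.87, 0.516 and 0.50 at E13 and 2.93, 8.39 and 6.38 at E16, with E13 ovary 1 near the level of E16 ovary 1 (log2 change 2.56 ± 0.63, adjusted p = 0.00882 by limma). Cma1, a mast cell chymase, read 0.116, 0.113 and 0.0653 at E13 and 0.245, 0.632 and 0.447 at E16 (log2 change 2.0 ± 0.52, adjusted p = 0.0137 by limma). The call was lost in 3 of 14 alternatives for Cpa3 and in 4 of 14 for Cma1. For both genes these included the Foxl2+/- ovaries of E16. Esr1, the estrogen receptor alpha of stroma and surface epithelium, read 0.926, 0.782 and 0.645 at E13 and 2.38, 2.41 and 2.04 at E16 and kept its call in all 14 alternatives (log2 change 1.54 ± 0.21, adjusted p = 6.2e-06 by limma). Among genes of sterol synthesis Idi1 read 3.56, 4.58 and 5.17 at E13 and 1.82, 1.41 and 1.7 at E16 (log2 change -1.42 ± 0.16, adjusted p = 4.7e-07 by limma) and Fdps read 0.714, 0.664 and 1.36 at E13 and 0.235, 0.31 and 0.339 at E16 (log2 change -1.53 ± 0.24, adjusted p = 5.0e-05 by limma), each without overlap and each called in all 14 alternatives.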
